A study of Mus musculus with 8 samples.

Results

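Cycling T cells are described here, from a mouse salivary organ, the submandibular gland, and from the lymph nodes that drain it. They were chosen from the raw counts: a cell barcode was taken as a T barcode if it had at least 2 UMIs (unique molecular identifiers, each a counted RNA molecule) of the CD3 genes Cd3d, Cd3e and Cd3g, no UMI of the B cell genes Cd79a and Ms4a1, and at most 2 UMIs of the macrophage genes C1qa, C1qb and C1qc. A T barcode was called cycling if Mki67 and Top2a together had at least 2 UMIs. Of 25172 barcodes kept in 4 libraries, 15490 were T barcodes and 809 of these were cycling. Library C1 had 36 cycling T barcodes, C2 had 339, C3 had 371 and C4 had 63. They are set beside the 13141 T barcodes with no UMI of either gene, called comparison barcodes here, which numbered 773, 2580, 6323 and 3465 in C1 to C4. Because Mki67 and Top2a chose the members, every difference between the 2 sets is a description and was not tested.

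The study sorted leukocytes by the CD45 surface protein from glands and nodes of 4 SS and 4 control mice aged around 12 weeks, where SS is an abbreviation left unexplained by the labels. The labels list SS gland, SS node, control gland and control node, each with 1 gene expression sample. No label or file header tied C1 to C4 to one of these groups, so no comparison of SS with control mice or of gland with node was made, and each library's values stand side by side without replicates. All intervals below are exact 95% intervals for counting error alone (Clopper-Pearson for shares, Poisson for levels) and say nothing about the spread between mice. Gland tissue was dissociated with collagenase while node tissue was triturated without it, per the labels' protocols.

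To divide, a resting T cell must first copy its genome. In S phase the MCM helicase opens replication origins, ribonucleotide reductase supplies DNA building blocks and histone genes are transcribed to package the new DNA. Cyclin B with Cdk1 then starts mitosis, condensins compact the chromosomes, and the spindle, its checkpoint and the chromosomal passenger complex separate them. Mki67 encodes the proliferation antigen Ki-67 and Top2a encodes topoisomerase II alpha, which untangles DNA; both are mostly transcribed from late S phase to mitosis. Proliferating T cells are common in lymph nodes during a response to antigen and can also be found in inflamed tissue.

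Promoters of S phase and mitotic genes are known to carry different motifs, so 3 are shown here from RefSeq (build GRCm38.p6), each from 250 bases before to 50 bases after the gene's start and read 5′ to 3′ on the gene's strand. Birc5 is a marker of cycling cells that the choice of barcodes did not use. Rrm2 was the S phase gene, and Cenpf, after Birc5, the G2 and M phase gene, with the largest ratio in the library where that ratio was lowest. Only list genes with a promoter at hand that were past 2-fold higher in all 4 libraries, by the equal-weight filter described below, were ranked. The genes of a single chromosome were left out of this ranking. Capitals mark TTTGAA (the core of the cell cycle homology region, CHR), CCAAT (the NF-Y box) and the E2F-type motif TTGGCGC with its variants TTCGCGC, further TTCCCGC, and lastly TTGCCGC, all searched on both strands. An E2F-type match can overlap CCAAT or another E2F-type match. Birc5 lies at chr11:117848987-117849286 on the plus strand, Rrm2 at chr12:24708004-24708303 on the plus strand and Cenpf at chr1:189688037-189688336 on the minus strand.
Birc5: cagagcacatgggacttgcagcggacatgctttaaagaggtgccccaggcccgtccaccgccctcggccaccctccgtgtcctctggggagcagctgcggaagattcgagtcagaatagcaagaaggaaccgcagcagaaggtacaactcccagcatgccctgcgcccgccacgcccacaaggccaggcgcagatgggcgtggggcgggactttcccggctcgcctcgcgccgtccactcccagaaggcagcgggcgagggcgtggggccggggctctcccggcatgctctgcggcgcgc
Rrm2: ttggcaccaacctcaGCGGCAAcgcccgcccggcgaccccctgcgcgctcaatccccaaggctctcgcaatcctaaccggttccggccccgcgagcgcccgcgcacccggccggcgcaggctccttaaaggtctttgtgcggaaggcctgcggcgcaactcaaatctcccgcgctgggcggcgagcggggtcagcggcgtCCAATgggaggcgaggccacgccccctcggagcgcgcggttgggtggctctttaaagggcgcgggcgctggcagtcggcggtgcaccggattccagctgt
Cenpf: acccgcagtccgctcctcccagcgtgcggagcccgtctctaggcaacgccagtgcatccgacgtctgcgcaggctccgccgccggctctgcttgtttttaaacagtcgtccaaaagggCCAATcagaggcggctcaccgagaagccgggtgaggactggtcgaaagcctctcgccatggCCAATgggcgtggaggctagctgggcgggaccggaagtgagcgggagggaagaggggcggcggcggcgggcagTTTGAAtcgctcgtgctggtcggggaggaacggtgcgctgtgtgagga

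In these windows Rrm2 held 1 E2F-type match and 1 CCAAT, Cenpf held 1 TTTGAA and 2 CCAAT, and none of these letters was found for Birc5. Of the 43 genes of the S phase list, 31 had a promoter in the table, and an E2F-type match was present in 21 of them (67.7%), against 9.69% of all 27025 genes with a promoter. TTTGAA was present in 5 of the 31 (16.1%), against 18.1% of all. For the 52 genes of the G2 and M phase list, 45 had a promoter, of which 30 (66.7%) held TTTGAA and 8 (17.8%) an E2F-type match. CCAAT was present in 71.0% of the S phase and 75.6% of the G2 and M phase promoters, against 37.9% of all, and TTTGAA together with CCAAT in 53.3% of the G2 and M phase promoters, 12.9% of the S phase promoters and 7.12% of all. The levels of both lists in the cycling barcodes follow; a match of letters is a description of the sequence and not a binding site.

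C2 had the largest share of T barcodes that were cycling and C4 the smallest. C1 had a share of 3.92% (interval 2.76 to 5.38), C2 of 9.57% (8.62 to 10.6), C3 of 5.04% (4.55 to 5.57) and C4 of 1.72% (1.32 to 2.19). Cycling barcodes were deeper than comparison barcodes, least so in C1, and deeper barcodes reach 2 UMIs of a gene more easily. Their median depth was 6454.5, 9183, 15294 and 13997 UMIs in C1 to C4, against 5943, 4618, 8103 and 6008 UMIs in comparison barcodes. With every barcode thinned to 3467 UMIs and shallower ones left out (70, 656, 556 and 266 T barcodes), the share was 2.24%, 5.89%, 2.82% and 0.675% over the same order of libraries. The highest and the lowest library were the same ones at equal depth, and the intervals of C1 (1.35 to 3.47) and C3 (2.44 to 3.25) overlapped. When the deepest 5% of each library's T barcodes were left out, the share was 3.55%, 6.84%, 2.83% and 0.717%. Among B barcodes, chosen by at least 2 UMIs of Cd79a and Ms4a1 and no CD3 UMI, 4.12%, 8.33%, 18.2% and 3.03% in C1 to C4 had at least 2 UMIs of Mki67 and Top2a (97, 24, 671 and 1849 barcodes). In C1 3.93% of 2746 macrophage barcodes did, so its T barcodes met the rule about as often as its B and macrophage barcodes. Of the 921 NK cell barcodes of C1, 1.95% did (1.16 to 3.07).

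**Figure D1:**
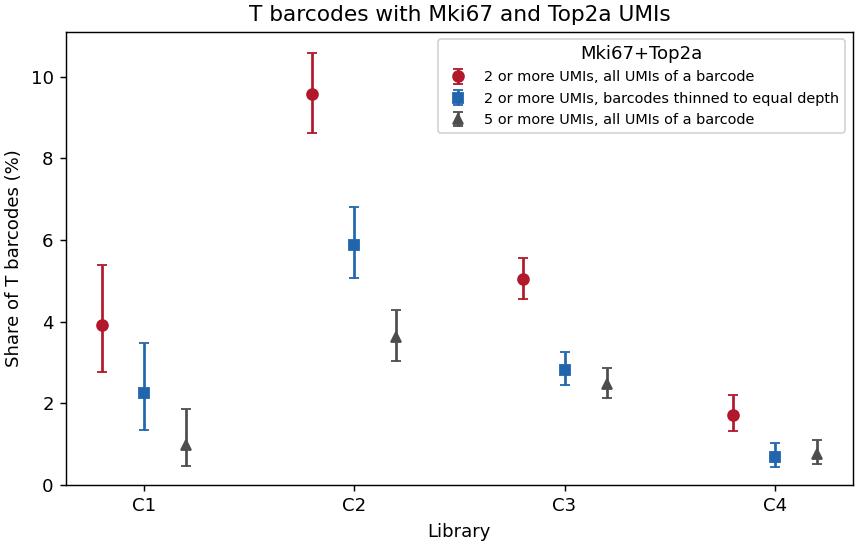
Share of T barcodes (%) with Mki67 and Top2a UMIs in libraries C1 to C4. Circles show at least 2 UMIs at full depth, squares at least 2 UMIs after thinning to equal depth, and triangles at least 5 UMIs at full depth; bars are exact 95% binomial intervals. C2 has the highest value of each measure, 9.57% at full depth and 5.89% at equal depth.

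The files as a whole bear on these cells in a few ways. From C1 to C4, 5616, 5067, 8532 and 5957 barcodes were kept, and 31 to 85 kept barcode sequences were shared by a pair of libraries; of the members, 1, 11, 5 and 1 had a barcode that was also kept in another library, and none was a member there. Mucl2, a salivary secretory gene, had a UMI in every cycling barcode of C1 and C2 and in all but 1 of their comparison barcodes, and in none of the cycling barcodes of C3 and C4. In barcodes of 50 to 199 UMIs, which mostly hold free RNA, Mki67 was at 12.7, 68.3, 77.6 and 70.0 CPM (UMIs scaled to a total of 1000000) in C1 to C4, so a low count of the rule's genes can also come from free RNA; its part was not tested. Scrublet, a doublet caller, marked 1 cycling barcode of C1 and none in the other libraries, but called 0 of 5067 barcodes in C2 and 2 of 8532 in C3, too few to count as a working call there.

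The 809 barcodes were not alike: most with 5 or more UMIs of the rule's genes carried other cell cycle transcripts, and those at the threshold carried fewer of them. Exactly 2 UMIs were found in 20 of 36, 145 of 339, 140 of 371 and 23 of 63 members of C1 to C4. The members with 5 or more numbered 9, 128, 182 and 28; this division was chosen after seeing the data. Birc5 (survivin, of the chromosomal passenger complex) and Stmn1 (stathmin, which destabilises microtubules) were not used in the rule. They were given as markers of these cells with earlier results of these data known, so they are no independent test of the label. A UMI of either was present in 7 of 9, 120 of 128, 179 of 182 and 28 of 28 members with 5 or more UMIs of the rule's genes. Among members with 2 to 4 it was present in 1 of 27, 43 of 211, 49 of 189 and 12 of 35, and among comparison barcodes in 22 of 773, 76 of 2580, 302 of 6323 and 301 of 3465. These counts are at full depth, and a UMI is seen more easily in deeper barcodes. Median depth was 8413, 14556.5, 22054.5 and 24541.5 UMIs with 5 or more, against 6397, 6943, 9730 and 8977 UMIs with 2 to 4. The part of depth was not tested. In C1 none of the 20 members with exactly 2 UMIs had either gene, which allows a share of barcodes with a UMI of either of up to 16.8% and does not limit how many cells express them. Most members with 5 or more UMIs in each library thus had a UMI of Birc5 or Stmn1, while most members with 2 to 4 lacked both. In C1, 27 of the 36 members were of that second kind.

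The level of the 43 S phase genes, given as their summed CPM, was higher in barcodes with more Mki67 and Top2a UMIs, up to 10 to 19 UMIs in C2 and C3. In C3 it was 706 CPM with none, 966 with 1, 1674 with 2, 2457 with 3 to 4, 4723 with 5 to 9, 6149 with 10 to 19 and 5423 with 20 or more. The 52 G2 and M phase genes, counted without Mki67 and Top2a, were at 1279, 1479, 2280, 3829, 7331, 7784 and 14255 CPM over the same steps. Barcodes just outside the threshold, with 1 UMI, thus lay above the comparison barcodes but closer to them than those just inside it, with 2. Birc5 or Stmn1 was seen in 4.78%, 8.01% and 19.3% of the C3 barcodes with 0, 1 and 2 UMIs. In C1 the members with exactly 2 UMIs had 979 CPM of the S phase list (817 to 1164) and 1645 CPM of the G2 and M phase list, against 885 and 1508 CPM in comparison barcodes. The steps were less even in C4, where the G2 and M phase list had 6684 CPM with 3 to 4 UMIs (12 barcodes) and 5241 CPM with 5 to 9 (5 barcodes). With the deepest 5% of T barcodes left out, the remaining cycling barcodes of C4 had 840 CPM of the S phase list, against 736 CPM in all its comparison barcodes, and 3882 CPM of the G2 and M phase list, against 1410 CPM.

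**Figure D2:**
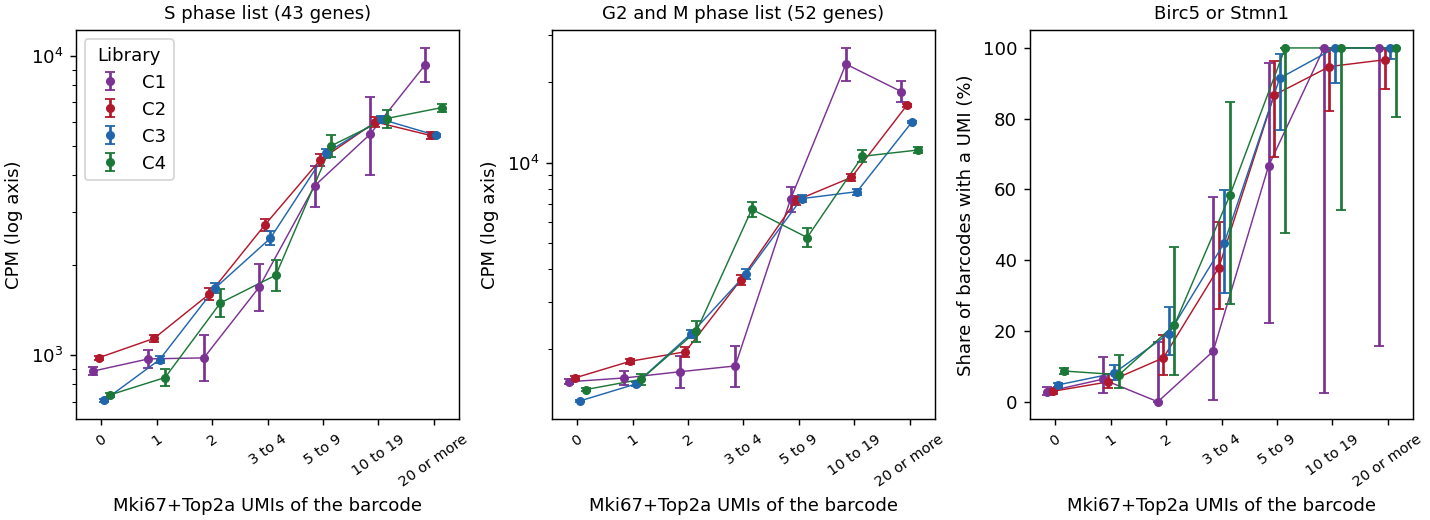
Summed level of the S phase list and of the G2 and M phase list (CPM, log axis) and share of T barcodes with a UMI of Birc5 or Stmn1 (%), by the number of Mki67 and Top2a UMIs of the barcode, with exact 95% intervals. Points are sums over the T barcodes of 1 library; the C1 points from 10 UMIs upward rest on 1 and 2 barcodes. All measures are well above the level of barcodes with 0 UMIs from 5 UMIs upward.

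Over all members, the S phase list stood at 2461, 3750, 4333 and 5018 CPM in cycling barcodes of C1 to C4, against 885, 980, 706 and 736 CPM in comparison barcodes, ratios of 2.78, 3.83, 6.14 and 6.82. The G2 and M phase list stood at 4685, 7684, 9182 and 8517 CPM, against 1508, 1558, 1279 and 1410 CPM. Cycling barcodes were above comparison barcodes for both lists in each library. In members with 5 or more UMIs the libraries lay closer to each other: 5694, 5382, 5452 and 6435 CPM for S phase and 12624, 12481, 12146 and 10361 CPM for G2 and M phase. C4 had the highest S phase level (6267 to 6605) and the lowest G2 and M phase level (10148 to 10577). C1, whose members were mostly of the 2 to 4 kind, came out lowest over all members. Its 9 members with 5 or more lay within or near the range of the other libraries. The part of this mix in the C1 levels was not tested.

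A gene was called higher or lower if its CPM ratio, cycling over comparison, was past 2-fold in the same direction in all 4 libraries. Among the 3880 genes with at least 10 UMIs expected in the members of each library, 30 were higher (0.773%) and 4 lower (0.103%). That filter takes its expectation mostly from the comparison barcodes and so leaves out genes nearly absent there; with both sets given equal weight, an alternative added after seeing the data, 77 of 4099 genes were higher (1.88%) and 3 lower (0.0732%), the 77 including Mki67 and Top2a themselves. C1, with 36 members and 282382 UMIs in them, set these counts: over C2 to C4 alone, with equal weight, 436 of 8186 genes were higher (5.33%) and 43 lower (0.525%). A gene nearly absent from comparison barcodes passes that filter only through its level in cycling barcodes and so had to be higher. The counts of list members below therefore use another filter, also added after seeing the data: 10 UMIs expected at the level of the comparison barcodes alone, over C2 to C4. It left 7846 genes, of which 191 were higher (2.43%) and 50 lower. Of 172 genes in 15 cell cycle lists other than Mki67 and Top2a, 83 could be counted, and 58 of these were higher and 0 lower; the rest were too low in comparison barcodes to be counted. The choice of members by Mki67 and Top2a bears on all these counts. The median ratio of all counted genes was 1.12, 0.990, 1.11 and 1.10 in C1 to C4.

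For the start of replication, all 6 subunits of the MCM helicase were counted, and all 6 were higher in C2 to C4. Mcm6 had 170, 290, 276 and 279 CPM in cycling barcodes, against 59.1, 105, 50.9 and 44.8 CPM in comparison barcodes. Mcm5 had 85, 171, 193 and 244 CPM, against 15.6, 16.9, 13.0 and 16.8 CPM in comparison barcodes. Mcm3 stood at 85, 196, 213 and 314 CPM, against 19.2, 25.6, 29.1 and 30.9 CPM. Of 6 origin licensing genes 4 were counted, and 2 were higher in C2 to C4. Gmnn, the inhibitor of relicensing geminin, had 63.7, 107, 127 and 157 CPM, against 18.4, 19.2, 14.0 and 14.4 CPM in comparison barcodes. Cdt1, the loading factor that geminin binds, had ratios of 1.95, 1.63, 2.41 and 2.41.

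Of 10 genes that supply nucleotides 6 were counted, and 5 were higher in C2 to C4. Rrm2, the regulated subunit of ribonucleotide reductase whose promoter is printed above, had 166, 182, 282 and 320 CPM in cycling barcodes, against 2.20, 4.04, 1.40 and 1.09 CPM in comparison barcodes. Rrm1, the large subunit, had 74.4, 185, 211 and 252 CPM, against 32.1, 30.3, 17.2 and 19.5 CPM. In C2 to C4 the levels of both subunits in cycling barcodes lay close together, while Rrm1 was also present in comparison barcodes and Rrm2 almost absent there. Dut, which removes dUTP, had 212, 387, 407 and 458 CPM, against 48.9, 88.3, 50.4 and 50.5 CPM. Tyms, which makes dTMP, had 95.6, 137, 180 and 160 CPM, against 11.4, 19, 9.66 and 4.77 CPM. Pcna, the sliding clamp of DNA polymerase and a common proliferation marker, separated the sets less well: it had 124, 194, 259 and 318 CPM in cycling barcodes, against 66.9, 57.2, 54.9 and 63.9 CPM, and its ratio in C1 was 1.85.

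Histone genes gave the most abundant cell cycle transcripts. The 12 genes of the list summed to 4409, 7112, 8074 and 9421 CPM in cycling barcodes, against 939, 1405, 843 and 654 CPM in comparison barcodes; 9 of the 12 were counted, and 8 were higher in C2 to C4. Hist1h2ap, an H2A gene, had 1409, 1860, 2058 and 3290 CPM, against 54.3, 62.9, 16.5 and 41.2 CPM. H2afz, which encodes the variant H2A.Z and is also expressed outside S phase, had 938, 1461, 2036 and 1896 CPM, against 336, 468, 566 and 311 CPM. Hist1h1b, a linker histone gene, had ratios of 71.6, 17.1, 197 and 379. H2afz made up 566 of the 843 CPM of the list in comparison barcodes of C3 and 2036 of the 8074 CPM in its cycling barcodes. The sums are therefore not of S phase histones alone. Copies of the S phase histone genes are nearly identical in sequence and their transcripts mostly lack a poly(A) tail, so the split of UMIs among copies is uncertain.

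In G2 and M phase, 17 of the 52 list genes were counted, and 11 were higher in C2 to C4; for the S phase list 25 of 43 were counted and 21 higher. The 4 genes of the chromosomal passenger complex, which corrects the attachment of chromosomes to the spindle, had the largest list ratios of the 15 cell cycle lists in each library: 13.3, 18.6, 41.8 and 43.2. Of these 4 genes 1 was counted, and it was higher in C2 to C4. The rest were too low in comparison barcodes, where the whole list had 95 UMIs in C1, so the list ratios rest on low levels there. Birc5 had 95.6, 223, 312 and 245 CPM in cycling barcodes, against 0.200, 1.30, 0.935 and 0.500 CPM in comparison barcodes. Cdca8, which encodes borealin, had 81.4, 134, 168 and 155 CPM, against 2.20, 3.13, 2.65 and 1.82 CPM, and Incenp, the scaffold of the complex, had ratios of 3.45, 4.86, 11.1 and 11.9. Stmn1 had 290, 392, 400 and 569 CPM, against 4.59, 7.56, 7.09 and 16.4 CPM.

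Most motor and kinetochore genes were too low in comparison barcodes to be counted. Of 10 mitotic kinesins 1 was counted and was higher in C2 to C4, and of 10 centromere and kinetochore genes 3 were counted and all 3 were higher. Kif11, the motor that pushes spindle poles apart, had 53.1, 104, 137 and 114 CPM in cycling barcodes, against 2.20, 3.43, 0.662 and 0.409 CPM in comparison barcodes. Cenpf, a kinetochore protein whose promoter is printed above, had 95.6, 136, 160 and 107 CPM, against 0.200, 1.45, 0.428 and 0.227 CPM. Cenpa, the centromeric histone, had 88.5, 218, 236 and 206 CPM, against 18.0, 47.7, 12.5 and 22.2 CPM. Of 6 condensin genes 2 were counted, and 1 was higher; the other, Smc4, had ratios of 2.80, 2.80 and 1.60 in those libraries. Smc2, its partner ATPase, had 127, 197, 207 and 207 CPM, against 18.4, 23.9, 18.6 and 19.1 CPM. Tubb5 and Tuba1b, which encode spindle and general cytoskeletal tubulins, were higher in all 4 libraries, Tuba1b with 839, 1428, 1976 and 2161 CPM, against 174, 165, 328 and 402 CPM.

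Of 7 spindle checkpoint genes 3 were counted, and 2 were higher in C2 to C4. Pttg1 (securin, which holds back separase) had 106, 214, 188 and 160 CPM in cycling barcodes, against 22.2, 43, 11.7 and 9.08 CPM in comparison barcodes. Cdc20, which activates the anaphase-promoting complex, had 14.2, 83.8, 115 and 101 CPM, against 1.20, 1.68, 3.27 and 2.54 CPM. Bub3, a checkpoint protein, was the counted gene that was not called, with ratios of 1.80, 1.70, 2.40 and 1.97.

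Among cyclins and their kinases, the phase-specific Ccna2 differed far more than the G1 genes Ccnd3 and Cdk4. Ccna2, the S and G2 phase cyclin A2, had 120, 145, 163 and 162 CPM in cycling barcodes, against 1.20, 0.534, 0.312 and 0.409 CPM in comparison barcodes. Ccnd3, a G1 cyclin of lymphocytes, had 340, 155, 224 and 261 CPM, against 240, 193, 229 and 215 CPM. Cdk4, the partner of D cyclins, had ratios of 1.31, 1.71, 1.89 and 2.69, past 2-fold in C4 alone. In the E2F and Rb list 5 of 12 genes were counted and 1 was higher in C2 to C4, while E2f4, a mostly repressive E2F, had ratios of 1.32, 1.25, 1.5 and 2.00. Of 7 CDK inhibitors 2 were counted and 0 were called. Cdkn1b, which encodes p27, had 198, 129, 86.2 and 79.4 CPM, against 163, 181, 120 and 172 CPM, so it was above comparison barcodes in C1 and below them in C2 to C4. Cdkn2c, which encodes p18, had 53.1, 60.9, 42.4 and 25.9 CPM, against 18.2, 33.1, 8.74 and 3.91 CPM. Of 8 p53 target genes, 0 of the 5 counted in C2 to C4 were called, and the list's ratios were 1.29, 1.18, 1.07 and 1.25.

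**Figure D3:**
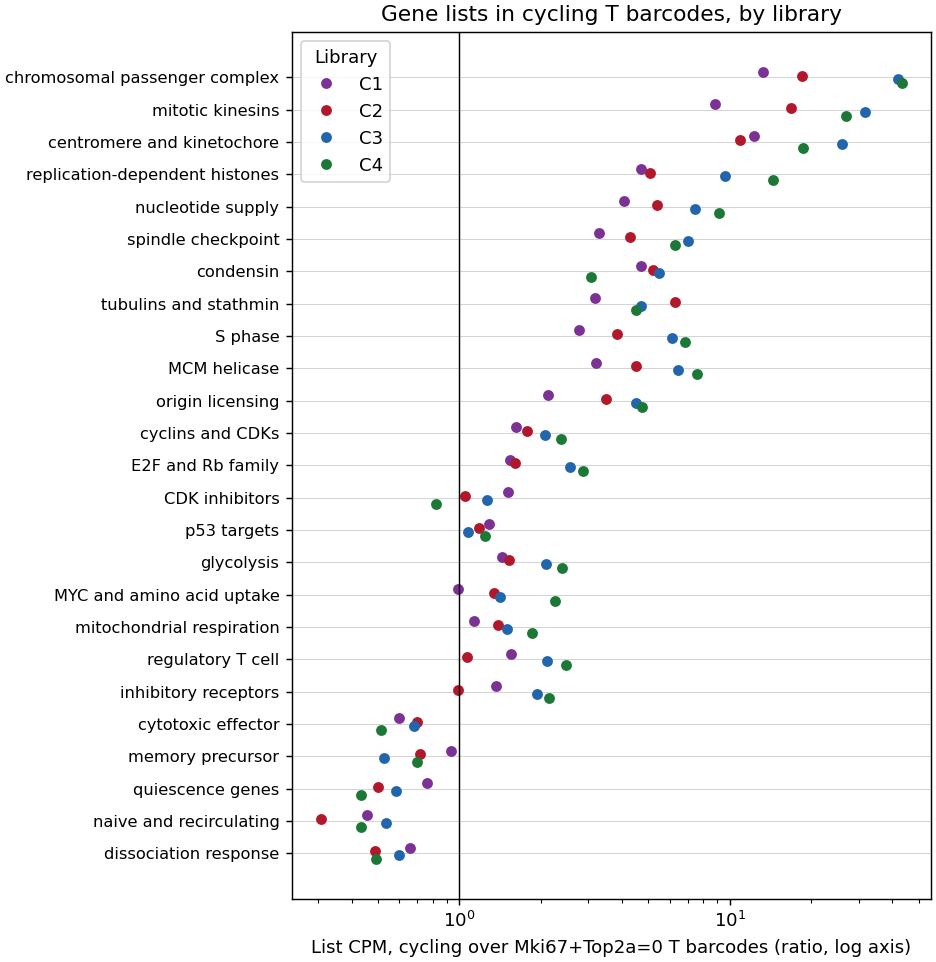
Ratio of summed CPM, cycling over comparison barcodes (log axis), for 25 gene lists; each point is 1 library. The chromosomal passenger complex has ratios of 13.3 to 43.2 and the naive and recirculating list ratios of 0.308 to 0.535.

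Outside the 15 cell cycle lists, 13 genes were higher in all 4 libraries under the first filter. Lmnb1, which encodes the nuclear envelope protein lamin B1, had 322, 400, 407 and 514 CPM in cycling barcodes, against 82.1, 104, 36.0 and 31.1 CPM in comparison barcodes. Dnmt1, the maintenance DNA methyltransferase, had 145, 201, 213 and 226 CPM, against 53.1, 56.1, 49.7 and 54.9 CPM. Hmgn2, a nucleosome-binding protein gene, had 386, 562, 713 and 891 CPM, against 157, 141, 98.4 and 174 CPM. The others were H2afv, Hist2h2aa1, Nap1l1, Dek, Anp32b and Dnajc9, which encode histones or proteins that bind chromatin or histones, Lsm2 and Alyref of RNA processing and export, Csrp1 and Lgals1. Lgals1 encodes galectin-1, which is raised in activated T cells; it had 1576, 1904, 1522 and 1420 CPM, against 647, 857, 352 and 186 CPM. With equal weight for both sets the list also took in Hist1h2af, Pclaf, Hist1h2ab, Prc1, Tcf19, Rfc5, Lig1, Lockd, Ezh2, Pmm1, Cmc2 and Racgap1. Genes nearly absent from comparison barcodes, such as Pclaf, passed that filter only through their level in cycling barcodes and so had to be higher. Pclaf, a PCNA-binding protein gene, had 166, 340, 469 and 456 CPM, against 0.399, 2.37, 1.36 and 0.500 CPM. Ezh2, the methyltransferase of Polycomb complex PRC2, had 138, 133, 169 and 161 CPM, against 24.6, 35.9, 18.5 and 19.2 CPM.

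The 4 genes lower in all 4 libraries were Bcl2, Jun, Rhob and Card6. Bcl2, the anti-apoptotic gene, had 67.3, 82.0, 97.5 and 55.1 CPM in cycling barcodes, against 223, 184, 262 and 137 CPM in comparison barcodes. Jun had 485, 196, 115 and 147 CPM, against 1023, 505, 263 and 546 CPM, and Rhob, a small GTPase gene of the immediate early kind, had ratios between 0.286 and 0.475. Card6, the last of the 4, had 14.2, 10.2, 15.7 and 13.0 CPM, against 47.9, 26.6, 35.9 and 53.3 CPM; it was not counted under equal weight. Jun belongs to the 12 genes of the dissociation response, which tissue handling is known to induce, and that list had 8988, 3121, 1553 and 1845 CPM in cycling barcodes, against 13730, 6414, 2588 and 3756 CPM. Its part in the values of Jun and Rhob was not tested.

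Over C2 to C4, chosen after C1's part in the counts was seen, Il7r had the smallest highest ratio among lower genes. Il7r encodes the receptor for the survival cytokine IL-7; it had 149, 25, 177 and 135 CPM in cycling barcodes of C1 to C4, against 240, 173, 577 and 403 CPM in comparison barcodes. Of 12 quiescence genes, 4 were lower in C2 to C4 and 0 higher, where 50 of all 7846 genes counted were lower. Btg1, an antiproliferative gene, had 1353, 853, 300 and 320 CPM, against 1636, 1775, 650 and 886 CPM. Klf2, a transcription factor that keeps T cells quiescent and recirculating, had 188, 77.3, 340 and 290 CPM, against 567, 277, 577 and 723 CPM. Of 8 naive and recirculating genes 2 were lower in C2 to C4 and 0 higher; the list summed to 545, 227, 1456 and 1496 CPM, against 1197, 736, 2721 and 3461 CPM. By the rule over all 4 libraries, 0 genes of either list were lower. The comparison barcodes of C1 also held genes of NK cells: their 6 NK cell genes summed to 3713 CPM and Ncr1 had a UMI in 33.0% of them, against 1392 CPM and 11.1% in the members of C1. The part of NK cells in the C1 ratios was not tested.

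The metabolic lists had ratios below 2 in C1 and C2, while that of glycolysis was 2.09 in C3 and 2.39 in C4. The 12 glycolysis genes summed to 5135, 7087, 7567 and 7897 CPM in cycling barcodes, against 3557, 4628, 3617 and 3305 CPM in comparison barcodes; 1 of 11 counted was called in C2 to C4. Ldha, which makes lactate, had ratios of 1.28, 1.83, 2.12 and 2.49. For 12 genes of mitochondrial respiration the sums were 3470, 4544, 4742 and 5053 CPM, against 3056, 3271, 3172 and 2729 CPM, with 0 called. The 10 genes of MYC and amino acid uptake had list ratios of 0.990, 1.35, 1.41 and 2.26. Ran, a GTPase of nuclear transport and the spindle, was called in C2 to C4, with 365, 677, 931 and 1126 CPM, against 226, 264, 308 and 269 CPM.

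S phase and mitotic transcripts were carried together by most members with 5 or more UMIs. With each barcode thinned to the same depth, the median member had 4, 6, 8 and 6 UMIs of the S phase list in C1 to C4, against 3, 3, 2 and 2 in comparison barcodes, and 6, 10, 14 and 12 UMIs of the G2 and M phase list, against 5, 5, 4 and 5. Members above the 95th percentile of comparison barcodes for both lists made up 14.7%, 35.8%, 45.6% and 44.4%, against 0.141%, 0.395%, 0.241% and 0.437% of comparison barcodes. Among members with 5 or more UMIs the share was 55.6%, 76.5%, 81.3% and 92.9%. Members above that level for neither list were 70.6%, 43.1%, 35.2% and 36.5%. Those above it for the S phase list alone were 2.94%, 9.58%, 6.56% and 9.52%. A barcode can also be in S phase with no UMI of the rule's genes: 5, 24, 23 and 7 comparison barcodes had at least 10 S phase UMIs (0.704%, 1.18%, 0.396% and 0.219%), against 6, 124, 171 and 28 members (17.6%, 39.6%, 46.7% and 44.4%).

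**Figure D4:**
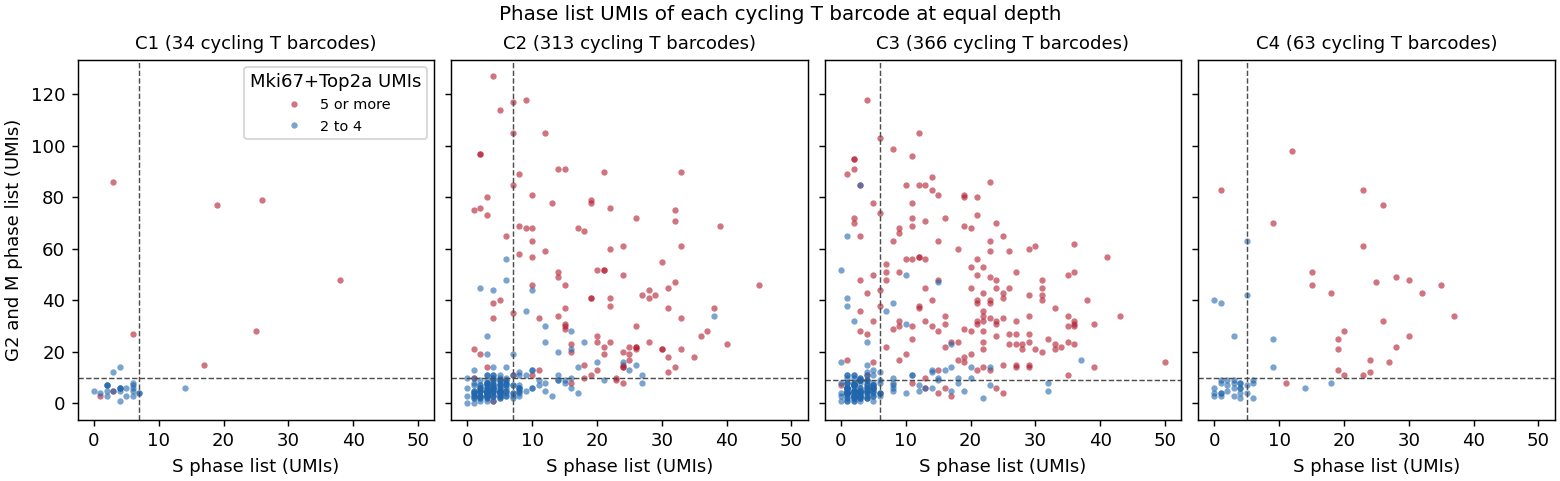
UMIs of the S phase list (x axis) and of the G2 and M phase list (y axis) of each cycling T barcode after thinning to equal depth, 1 panel per library; red points have 5 or more Mki67 and Top2a UMIs and blue points 2 to 4. Dashed lines are the 95th percentile of comparison barcodes; most red points lie above both lines and most blue points near the origin.

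The lineage makeup of cycling cells varied among libraries; beside the comparison set, CD8-only barcodes were a smaller share in C3 and a larger one in C2. CD8-only barcodes, with a UMI of Cd8a or Cd8b1 and none of Cd4, made up 25%, 74.0%, 53.9% and 28.6% of cycling barcodes, against 23.5%, 63.8%, 74.4% and 29.2% of comparison barcodes. At equal depth, with both sets still those chosen at full depth, the shares were 26.5%, 73.8%, 57.1% and 27.0%, against 24.1%, 67.0%, 78.2% and 30.5%. In C3 the interval of cycling barcodes (51.9 to 62.2) lay below the comparison share, and in C2 (68.6 to 78.6) above it. CD4-only barcodes made up 26.5%, 15%, 21.9% and 27.0% of cycling barcodes at equal depth, against 22.0%, 19.1%, 12.0% and 34.9% of comparison barcodes; at full depth they made up 52.8%, 17.1%, 29.1% and 36.5%, against 26.6%, 21.9%, 16.0% and 43.5%. B barcodes, which should lack both lineages, were CD8-only in at most 0.641% and CD4-only in 0% at that depth, over 88, 25, 575 and 1249 barcodes. Barcodes with both lineages' genes made up 14.6% of cycling barcodes in C3, against 2.66% of comparison barcodes, and 4.37% against 1.36% at equal depth; whether these were pairs of cells was not tested.

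The share of each lineage that was cycling did not have the same order in every library. At equal depth the rule was here applied again to the thinned counts. In C3 8.55% of CD4-only T barcodes were cycling (7.07 to 10.2) and 3.74% of CD8-only ones (3.25 to 4.29); at equal depth these were 4.66% and 2.17%, and their intervals did not overlap. In C2 7.64% of CD4-only T barcodes were cycling (5.85 to 9.77) and 10.8% of CD8-only ones (9.58 to 12.1), with 4.74% and 6.30% at equal depth, whose intervals overlapped. In C4 the shares were 1.45% of CD4-only and 1.67% of CD8-only T barcodes, and 0.505% and 0.478% at equal depth. In C1 they were 7.06% and 3.98%, and 1.97% and 3.30% at equal depth. The order turned with depth in both C1 and C4, and the intervals overlapped at each depth. Of the thymocyte genes, Rag1 had no UMI in any member, and Ptcra was seen in 1 member, in C4; at equal depth the 0 of Rag1 limits barcodes with a UMI, not cells that express it, to 10.3%, 1.17%, 1.00% and 5.69%.

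**Figure D5:**
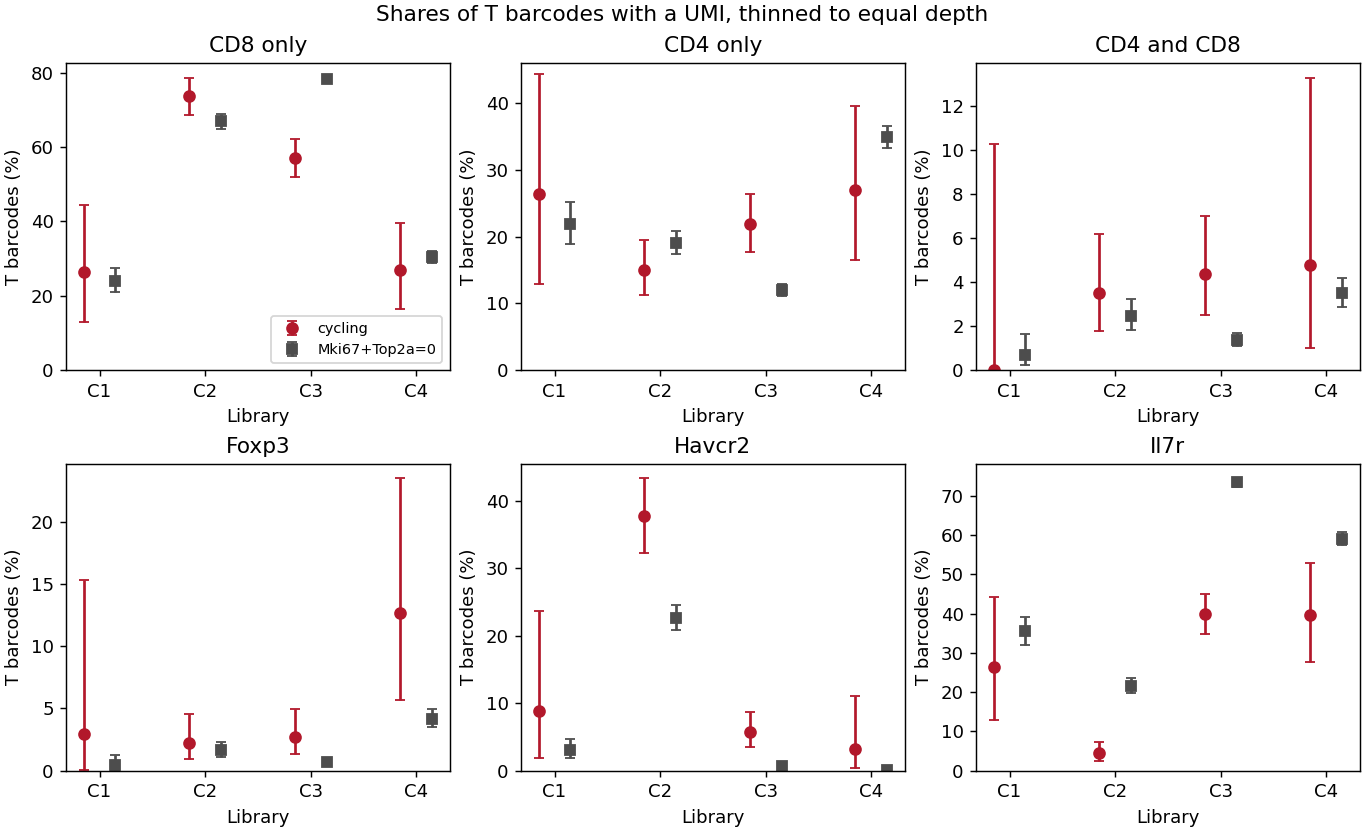
Share of cycling T barcodes (red circles) and of comparison T barcodes (grey squares) with the named genes, in libraries C1 to C4 after thinning to equal depth; bars are exact 95% binomial intervals. Both sets were chosen at full depth. Cycling barcodes of C3 are CD8-only in 57.1%, against 78.2% of comparison barcodes. Il7r is seen in fewer cycling barcodes in each library, though C1 has only 34 cycling barcodes here.

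Genes of activated and regulatory T cells were seen in more of the cycling barcodes of some libraries. Foxp3, which defines regulatory T cells, was seen in 2.78%, 3.54%, 4.85% and 25.4% of cycling barcodes, against 0.906%, 2.17%, 1.14% and 5.69% of comparison barcodes. At equal depth it was seen in 2.94%, 2.24%, 2.73% and 12.7%, against 0.423%, 1.63%, 0.688% and 4.19%, and in at most 0.0801% of B barcodes. In C4 the interval of cycling barcodes (5.65 to 23.5) lay above the comparison share, on 63 barcodes chosen at full depth. When the rule was applied again after thinning, 1 of 151 C4 T barcodes with Foxp3 was cycling (0.662%), against 0.675% of all its T barcodes. In C2 these were 3 of 49 (6.12%) against 5.89%, and in C3 5 of 54 (9.26%, 3.08 to 20.3) against 2.82%. The C4 excess was thus seen only with members chosen at full depth. Icos, a costimulatory receptor of activated T cells, was seen at equal depth in 58.8%, 40.9%, 25.7% and 34.9%, against 35.5%, 39.0%, 12.8% and 10.4%. As a list, the 7 regulatory genes summed to 1165, 998, 454 and 795 CPM in cycling barcodes, against 748, 932, 215 and 321 CPM, and 0 of 7 were called in C2 to C4.

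Inhibitory receptors followed the library. Pdcd1, which encodes PD-1, was seen in 83.2% of cycling barcodes of C2, against 63.6% of comparison barcodes, and at equal depth in 68.4% against 59.3%. In C3 it was seen in 37.7%, against 7.54%, and at equal depth in 17.5% against 4.66%. Havcr2, which encodes TIM-3, was seen at full depth in 8.33%, 60.5%, 17.3% and 14.3% of cycling barcodes, against 5.05%, 26.1%, 1.44% and 0.173%. At equal depth it was seen in 8.82%, 37.7%, 5.74% and 3.17%, against 3.10%, 22.7%, 0.654% and 0.0937%; the B barcodes of C1 reached 3.41% and those of the other libraries 0%. The summed level of the 9 inhibitory receptor genes nonetheless differed little in C2, with 2422 CPM in cycling and 2459 CPM in comparison barcodes, and was 1289, 540 and 399 CPM in cycling barcodes of C1, C3 and C4, against 942, 278 and 186 CPM.

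Cytotoxic genes were lower as a sum and mixed as single genes. The 12 genes summed to 6385, 21469, 6276 and 481 CPM in cycling barcodes, against 10689, 30778, 9208 and 939 CPM in comparison barcodes, with 0 of 6 counted called in C2 to C4. Ccl5, a chemokine gene of memory and effector CD8 cells, made up much of that sum, with 3555, 12634, 4098 and 186 CPM, against 5195, 20249, 7207 and 547 CPM. In C3 other effector genes went the other way: Gzmb had 120 CPM in cycling and 18.7 CPM in comparison barcodes, and Gzmk 306 and 78.6 CPM. At equal depth Gzmb was seen in 16.1% of cycling barcodes of C3 (12.5 to 20.3), against 3.04%, and Gzmk in 29.0% (24.4 to 33.9), against 8.32%. In C2 Gzmk was seen in 77.3%, against 73.5%, and its levels were 707 and 713 CPM.

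Some genes of naive and resting T cells were seen in fewer cycling barcodes at equal depth, Il7r in each library and Ccr7 and Tcf7 in C3 and C4. Il7r was seen in 26.5%, 4.47%, 39.9% and 39.7% of cycling barcodes, against 35.6%, 21.7%, 73.5% and 59.1% of comparison barcodes. The C1 share rests on only 34 cycling barcodes. Ccr7, the lymph node homing receptor, was seen in 24.6% in C3 and 44.4% in C4, against 42.6% and 71.0%. Tcf7, the transcription factor TCF-1, was seen in 53.8% and 60.3% in those libraries, against 68.3% and 79.0%. At equal depth a barcode rich in cell cycle transcripts has fewer UMIs left for other genes, and the part of this was not tested.

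The 10 genes that differed most among the cycling barcodes of the 4 libraries, by the highest over the lowest CPM and with the salivary list left out, included some of gland secretion. Of these, Prol1 and Pip encode secreted proteins of glands; Prol1 had 574, 1973, 0 and 0 CPM in cycling barcodes, against 1266, 1586, 0 and 0 CPM in comparison barcodes. In barcodes of 50 to 199 UMIs, which mostly hold free RNA, Prol1 was at 40211 and 32064 CPM in C1 and C2, and its level in cycling barcodes is not read as expression there. Gzmc, a granzyme of NK and some T cells, had 389, 14.3, 0.452 and 0.810 CPM, against 1446, 51.4, 0.156 and 0.454 CPM. Ccl4 had 489, 2126, 162 and 3.24 CPM, against 1111, 3193, 146 and 15.3 CPM, and Ccl3 and Gzmk were also lowest in C4. Il17a, the type 17 cytokine, had 662, 2.86, 12.8 and 11.3 CPM, against 585, 62.1, 0.487 and 1.27 CPM; in C1 it was seen in 13.9% of the 36 members. The others were Ppp2r2c, Tmem273 and Ier5l. For Prol1, Gzmc and Ccl4 the comparison barcodes had the same order of libraries as the cycling barcodes.

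Genes of other cells were spread over many members for the salivary list and lay largely in single barcodes for others. In C2 the 10 salivary genes were over 1% of the UMIs in 79 of 339 members (23.3%), against 976 of 2580 comparison barcodes (37.8%). They summed to 23863 CPM in cycling barcodes, against 15731 CPM in comparison barcodes, and 51324 of the 91648 UMIs lay in 1 barcode with 97472 UMIs and 2 UMIs of the rule's genes; without it the sum was 10773 CPM. In C4 the 8 B cell genes summed to 1140 CPM, against 286 CPM, and to 740 CPM without the 1 barcode that held 504 of the 1407 UMIs. Cd74, the invariant chain of MHC class II, made up most of the B list in C4, with 975 CPM, against 72.6 CPM, and Cd79a and Ms4a1 were 0 by the rule. In C3 the 7 macrophage genes summed to 140 CPM, against 63.4 CPM, and 1 barcode held 477 of the 927 UMIs. The part of such barcodes in the results was not tested; with all barcodes removed that had over 1% of UMIs from these lists or the dendritic cell list, 29 genes were higher and 4 lower, against 30 and 4.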

How the data were processed

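The authors deposited raw UMI counts for each gene and barcode, without normalization. Cell Ranger 4 made the matrices, per the file headers, while the submitters' processing notes name Cell Ranger 6.1.2, STAR 2.7.10a and mm10. The labels' protocols name a BD Rhapsody workflow and the design text 10x. The receptor libraries were not analysed here. Barcodes under 500 UMIs or 300 genes, or with over 10% of UMIs from mitochondrial genes, were left out. The totals per library were 48439860, 44798843, 77819179 and 37902916 UMIs in C1 to C4.

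UMIs were summed over the members and over the comparison barcodes of a library and scaled to CPM; a sum of 0 was set to 3 counts and its ratio is then a bound. Each group has 1 sample, so no test was run and intervals cover counting error only. Shares were repeated with each barcode thinned at random to 3467 UMIs, the 10th percentile over the T barcodes compared. For the cycling share of T barcodes and of each lineage, the rule of 2 UMIs was applied again to the thinned counts. All other values at equal depth keep the members and comparison barcodes chosen at full depth, so the part of depth in that choice remains in them. Python 3.11.15, NumPy 2.4.6, SciPy 1.17.1, pandas 2.3.3 and Scanpy 1.11.5 (for Scrublet) were used, and the ratio step was tested on simulated data. Doublets were not removed from the main values.

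Named genes were up to 3 per list with the highest median CPM in members, or members of the short role lists. Outside the cell cycle lists they were up to 15 higher and 15 lower genes past 2-fold in all libraries, and the 10 with the largest ratio between libraries. Receptor V, D and J, salivary-list and erythroid genes were left out. Promoters came from RefSeq; Stmn1 was to be shown as well. Cenpf was added because Birc5 led its list. Members and gene lists were chosen with earlier results of these data known. The division at 5 UMIs, the equal-weight and comparison-level filters, the C2 to C4 counts by list and the removal of barcodes rich in other cells' genes were chosen after seeing the data.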

Additional observations from a re-analysis of the deposited data

How the results depend on the processing

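The minimum of Mki67 and Top2a UMIs and the depth moved most values. The cycling share in C1 to C4 was 15.9%, 27.2%, 14.0% and 5.64% at a minimum of 1 UMI, 1.74%, 5.48%, 3.14% and 1.09% at 3, and 0.979%, 3.61%, 2.47% and 0.763% at 5. Thinned to equal depth it was 2.24%, 5.89%, 2.82% and 0.675%. Without the deepest 5% of T barcodes it was 6.84%, 2.83% and 0.717% in C2 to C4, and without barcodes with Ncr1 or Klrb1c 5.41% in C1. The S phase list stood at 3739, 4708, 5127 and 5759 CPM in C1 to C4 at a minimum of 3 UMIs and at 5694, 5382, 5452 and 6435 CPM at 5, and the G2 and M phase list at 7306, 10240, 11243 and 9819 CPM and at 12624, 12481, 12146 and 10361 CPM. Without the deepest 5% these were 2144, 2846, 2465 and 840 CPM, and 5073, 5272, 5032 and 3882 CPM. Without barcodes rich in other cells' genes the G2 and M phase list was 4355 CPM in C1 and 8221 CPM in C2, and the S phase list 3841 CPM in C2. The CD4-only share at equal depth was 26.5% in C1 and 21.9% in C3; at a minimum of 1 UMI it was 24.4% in C3, and the CD8-only share there 62.1%. The other shares and levels, 142 values in all with the counts of genes, stayed within their counting interval or 1.5 times the count.

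Genes higher and lower past 2-fold numbered 15 and 2 with a filter of 30 expected UMIs, 295 and 110 at a minimum of 3 rule UMIs, 619 and 230 at 5, 18 and 1 without the deepest 5%, and 237 and 48 without C1. The minimum of 3 UMIs and the removal of the deepest 5% left 3 libraries with enough members, and the minimum of 5 left 2, so fewer libraries had to agree in direction. With Scrublet calls removed 2 genes were lower, with equal weight per barcode 0 were lower, and with the filter at the mean of both levels 77 were higher, or 436 higher and 43 lower without C1. With the filter at the level of comparison barcodes alone and without C1, 191 were higher and 50 lower. The causes of the other moves were not tested. No paired analysis was possible because each group has 1 sample and no result comes from a test. C1 has 36 members, and a share of 0 there allows up to 10.3% at equal depth, so C1 can show few differences.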

Other observations

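T cell receptor beta V genes were counted in the same barcodes at equal depth. Of 35 Trbv genes in the features, any was seen in 88.2%, 94.2%, 94.0% and 87.3% of cycling barcodes in C1 to C4, against 62.7%, 95.3%, 91.0% and 95% of comparison barcodes. More than 1 was seen in 20.0%, 27.8%, 31.4% and 18.2% of those cycling barcodes, against 25.6%, 29.3%, 22.9% and 32.6%. In C3 the interval of cycling barcodes (26.5 to 36.6) lay above the comparison share. Among barcodes with exactly 1 Trbv gene, the effective number of genes (the inverse of the summed squared shares) was 9.93, 14.3, 15.4 and 10.4 in cycling barcodes of C1 to C4, against 15.3, 15.6, 16.6 and 16.2 in comparison barcodes. The cycling values of C1 and C4 rest on 24 and 45 barcodes, and such a number is lower where fewer barcodes are counted. Trbv26 was the most common of them in C2, with 27 of 213 cycling barcodes (12.7%, 8.52 to 17.9), against 62 of 1365 comparison barcodes (4.54%, 3.5 to 5.79). In C4 it was seen in 5 of 45 (11.1%, 3.71 to 24.1), against 65 of 2049 (3.17%, 2.46 to 4.03). Trbv3 went the other way in C2, with 14 of 213 (6.57%), against 168 of 1365 (12.3%), but not in C4, with 6 of 45 (13.3%), against 150 of 2049 (7.32%). These genes were named because they ranked first among the Trbv genes, and none of the differences was tested.

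A gene of a lineage outside the main CD8 and CD4 split gave low values. Trdc, the constant gene of the delta chain, was seen at equal depth in 2.94%, 0.319%, 0% and 6.35% of cycling barcodes, against 5.77%, 0.888%, 0.980% and 2.22% of comparison barcodes. At full depth it was seen in 8.33%, 1.18%, 0.539% and 7.94%, against 9.18%, 1.05%, 1.44% and 3.12%, so the 0% of C3 holds at the thinned depth alone.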
